A study of Peromyscus polionotus with 11 samples.

Results

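Heat shock proteins and chaperonins were described in 2 forebrain nuclei of the oldfield mouse (Peromyscus polionotus) kept in short or long days. Members were all probe sets whose single gene symbol in the platform annotation begins with Hspa, Hspb, Hspd, Hspe, Hsph, Hsp90 or Dnaj, or is Tcp1 or a numbered Cct gene. The rule gave 146 probe sets for 70 genes, out of 22626 probe sets tested. It uses names alone and no measured value. No member passed the test in any of the 5 comparisons made, so the values below describe levels and differences that were not told apart from the spread between arrays at the threshold used.

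Chaperones bind proteins that are not yet folded or have lost their fold. HSP70 proteins work in cycles of ATP use that J-domain proteins (the Dnaj genes) start and nucleotide exchange factors end, HSP90 acts on late folding intermediates such as steroid receptors, and the ring-shaped chaperonin TRiC (the Cct genes and Tcp1) encloses actin, tubulin and other proteins. The endoplasmic reticulum (ER) and the mitochondrion each hold their own HSP70 and partner proteins. In neurons, chaperones are also known for handling synaptic vesicle proteins and for keeping sex steroid receptors able to bind hormone, and both nuclei studied here are rich in such receptors.

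Total RNA came from micropunches of the bed nucleus of the stria terminalis (BNST), with 2 short-day and 3 long-day samples, and of the medial preoptic area (MPOA), with 3 short-day and 3 long-day samples. Each sample was hybridised to 1 array with probes designed for the house mouse. The labels call the samples independent, but they do not tie a sample to an animal, and p-values measure the spread between these samples. The labels name no sex, age or strain and no hours of light. The question was how day length alters gene expression in these nuclei.

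Levels are linear intensities of probe sets, and differences are log2 differences from limma, with the standard error (SE) of the model and p-values adjusted over all 22626 probe sets (Benjamini-Hochberg, threshold 0.05, two-sided). Every array had a median intensity of 19, with quartiles of 13 to 14 and 33 to 35. Of the members, 90 probe sets (61.6%, 53 genes) had a mean above that median, against 49.96% of all probe sets. One array stood apart. On the first principal component the short-day MPOA array numbered 6 lay at -31.2, while the others lay between -6.63 and 25.4. The long-day BNST arrays lay at 25.4, 19.3 and 7.57 and the short-day BNST arrays at -2.38 and -6.63. The markers of nearby tissue also differed between the nuclei. Of 11 measured genes of striatal neurons, 10 were higher in BNST punches (median log2 difference 0.58, 5 passed), and their summed intensity was 3170 to 4019 in BNST arrays and 1748 to 3077 in MPOA arrays. Of 20 genes of hypothalamic and preoptic neurons, 14 were lower in BNST punches (1 passed as higher and 5 as lower), with sums of 2543 to 3231 in BNST arrays and 3548 to 4657 in MPOA arrays. No marker was at 0 on any array. In punches, fewer cells of a type and less RNA per cell cannot be told apart.

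Between the nuclei, the member with the smallest p was Cct3, the gamma subunit of the TRiC chaperonin. Its probe set 1448178_a_at read 799 and 696 in short-day BNST and 916, 862 and 977 in long-day BNST, against 1157, 1337 and 1001 in short-day MPOA and 914, 1211 and 1039 in long-day MPOA. The mean was 850 ± 108 in BNST (SD, n = 5) and 1110 ± 154.5 in MPOA (SD, n = 6), with the 2 long-day groups overlapping and the 2 short-day groups apart. The log2 difference, BNST minus MPOA averaged over day lengths, was -0.41 ± 0.11 (SE, adjusted p = 0.0684, limma) and did not pass. Over 19 alternatives the difference lay between -0.46 and -0.36 and the adjusted p between 0.0241 and 0.274. Without the short-day MPOA array numbered 6 it was -0.46 (adjusted p = 0.0356, limma).

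Cct3 is carried by 6 probe sets above the array median, and these share 1 gene and partly 1 transcript. Apart from 1448178_a_at, the differences were -0.30 (1426067_x_at), -0.29 (1416024_x_at), -0.29 (1451915_at), -0.17 (1459987_s_at) and 0.26 (1449645_s_at). The one positive value belongs to the dimmest of them, which read between 43 and 92 and was at 0.13 without the short-day MPOA array numbered 6 and 0.38 without that numbered 4. Without the long-day MPOA array numbered 3, 1459987_s_at was at -0.10. Name endings such as _x_at and _s_at can mark a match to more than 1 transcript.

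For 3 further TRiC subunits the difference had the same sign and did not pass. Cct8, the theta subunit, read 799 and 768 in short-day BNST and 858, 852 and 780 in long-day BNST, against 988, 974 and 990 in short-day MPOA and 888, 993 and 999 in long-day MPOA. All 5 BNST arrays were below all 6 MPOA arrays (log2 difference -0.27 ± 0.09, SE, adjusted p = 0.184, limma). Cct5, the epsilon subunit, read 458 and 460 in short-day BNST and 516, 599 and 545 in long-day BNST, against 653, 647 and 566 in short-day MPOA and 533, 648 and 607 in long-day MPOA. The long-day groups overlapped, and the difference was -0.27 ± 0.10 (SE, adjusted p = 0.220, limma). Tcp1, the alpha subunit, averaged 343 ± 29.6 in BNST and 399 ± 36.7 in MPOA, a difference of -0.24 ± 0.10 (SE, adjusted p = 0.324, limma).

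Probe sets of the remaining subunits above the array median were nearer to 0. The brightest Cct4 probe set (delta subunit) averaged 176.0 ± 8.0 in BNST and 186 ± 8.35 in MPOA, at -0.08, and another above the array median was at 0.02. The brighter Cct7 probe set (eta subunit) was at -0.13 and the other at 0.00. The Cct2 probe sets above the array median (beta subunit) were at -0.06 and -0.02. Cct6b, a zeta subunit form known mainly from testis in the house mouse, was at 0.15. Among the 8 TRiC probe sets below the array median, Cct4 1456082_x_at was at -0.36 ± 0.12 (SE, adjusted p = 0.209, limma), with means of 14.4 ± 2.70 in BNST and 18.7 ± 2.34 in MPOA. It stood at -0.54 in long days and -0.18 in short days. Cct2 1433534_a_at was at -0.25 (adjusted p = 0.370, limma). The other 6, which include both Cct6a probe sets (the zeta subunit of other tissues), lay between -0.14 and 0.02.

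**Figure D1:**
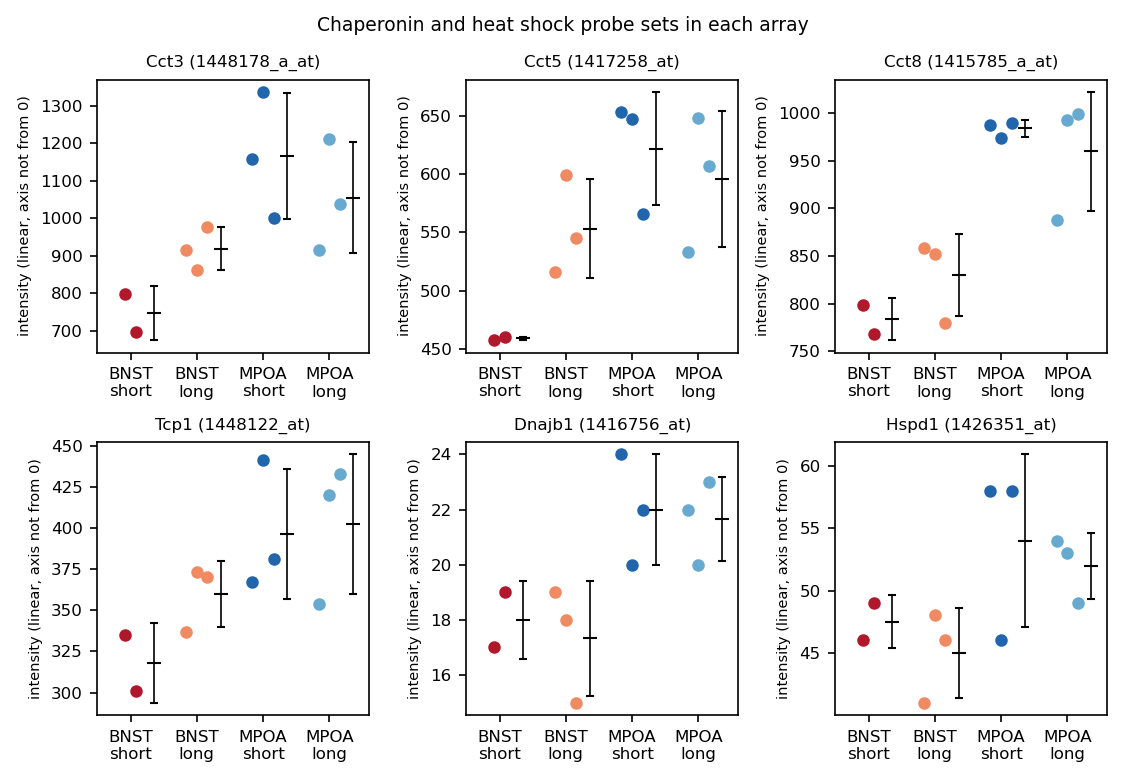
Intensity (linear, vertical axes not from 0) of 4 TRiC subunits, of Dnajb1 and of Hspd1 on each array. Points are arrays in 4 groups, BNST short and long days and MPOA short and long days, and black bars are group means ± SD. Every BNST point of Cct8 and Dnajb1 lies below every MPOA point, whereas the long-day groups of Cct3 and Cct5 overlap.

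As a set, 12 of the 16 TRiC probe sets above the array median were lower in BNST, with a median log2 difference of -0.15, whereas all probe sets above the median had a median of 0.01, with 5458 of 11305 lower. Quantile normalization gave the same 12 of 16 and -0.15. In short days alone 13 of 16 were lower with a median of -0.22, and in long days alone 11 of 16 with -0.10. Averaged over day lengths, the medians of the other groups of members by role lay between -0.04 and 0.05. Of 16 probe sets grouped as other class C J proteins, 12 were higher in BNST (median 0.02). TRiC was thus the group furthest from 0, and the roles were chosen with earlier results known. Over all 24 TRiC probe sets, 9 had an unadjusted p under 0.05, and all 9 were lower in BNST, where 11.9% of all probe sets had such a p and 6.14% had it and were lower. In short days alone, with 2 BNST arrays, 9 of the 24 had such a p, 8 of them above the array median. In long days alone 3 had it, 0 of them above that median. Of all 22626 probe sets, 2335 had such a p in short days and 2374 in long days. The 24 probe sets come from 9 genes, and 6 of the 24 belong to Cct3, so they are not independent. The striatal and hypothalamic marker sums given above differed between the same arrays. Sums of 10 genes of neurons in general overlapped, at 2110 to 2499 in BNST and 2356 to 2659 in MPOA (6 of 10 lower, 0 passed). The part of these markers in the TRiC values was not tested.

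Across all members, the nuclei were nearly balanced, with 71 probe sets higher and 75 lower in BNST (median -0.01, range -0.48 to 0.27). None of the 146 passed, while 1.03% of all probe sets did. At an unadjusted p under 0.05 there were 22 members (15.1%), against 11.9% of all probe sets. Of these, 15 were lower in BNST (10.3%, background 6.14%) and 7 were higher (4.79%, background 5.72%). All BNST arrays were below all MPOA arrays for 2 members, Cct8 and Dnajb1 (1.37%, background 0.769%), and above them for 0 members (background 0.703%). Where a gene had several probe sets above the array median (24 genes), these pointed in 1 direction in 12 genes.

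**Figure D2:**
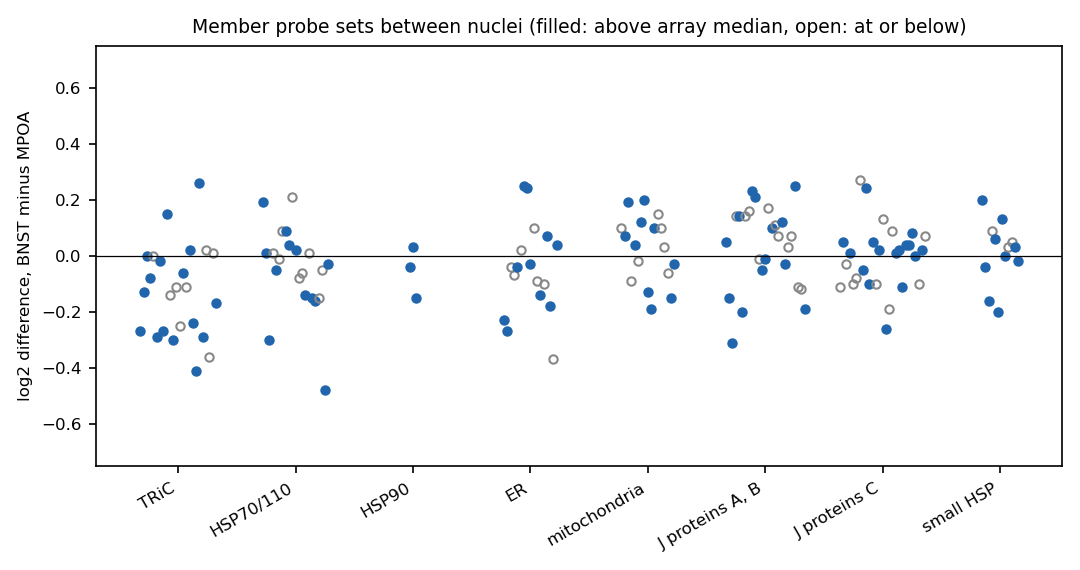
Log2 difference, BNST minus MPOA, of each of the 146 member probe sets, grouped on the horizontal axis by role. Filled points have a mean above the array median, and open points do not. In the TRiC column 12 of 16 filled points lie below 0, and the full range over all roles is -0.48 to 0.27.

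Among HSP70 proteins and their partners, the brightest probe sets did not separate the nuclei. Hspa8, the constitutive cytosolic HSP70, averaged 1067 ± 115 in BNST and 1012 ± 104 in MPOA on its brightest probe set (log2 difference 0.09), and its next brightest was at 0.04. Another, 1431182_at, averaged 36.6 ± 3.29 in BNST and 40.8 ± 6.59 in MPOA (-0.14). The dimmest, 1455789_x_at, read 27 and 16 in short-day BNST and 22, 24 and 18 in long-day BNST, against 29, 23 and 26 in short-day MPOA and 33, 39 and 28 in long-day MPOA. Its difference was -0.48 ± 0.13 (SE, adjusted p = 0.0998, limma), so the 4 Hspa8 probe sets lay on both sides of 0, and at the array median 1 intensity unit is 0.074 on the log2 scale. Without the short-day BNST array numbered 4 it was -0.67 (adjusted p = 0.0247, limma), and without that numbered 5 it was -0.29, with the adjusted p over all alternatives between 0.0247 and 0.443. Hspa4, an HSP110-type exchange factor, was at 0.19 on its brightest probe set, and Hspbp1, an exchange factor despite its name beginning, was at -0.30.

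Probe sets of the heat-inducible HSP70 genes Hspa1a and Hspa1b were dim in both nuclei and both day lengths, as was that of Hspa1l. The probes match the house mouse, so a dim probe set need not mean little transcript. Hspa1a read 9 to 14 over the 11 arrays, the 3 Hspa1b probe sets read 8 to 18, and Hspa1l, a form known mainly from testis, read 11 to 15. All 5 lay below the array median of 19. Hspa2, a further HSP70 gene, lay above it (26 to 41), with a nuclei difference of -0.05.

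J-domain proteins were spread around 0. Dnajb1, a main partner of HSP70 and itself heat-inducible, read 17 and 19 in short-day BNST and 19, 18 and 15 in long-day BNST, against 24, 20 and 22 in short-day MPOA and 22, 20 and 23 in long-day MPOA. Although every BNST array was below every MPOA array on 1416756_at (-0.31 ± 0.10, SE, adjusted p = 0.171, limma), the brighter Dnajb1 probe set was at -0.15. Dnajb5, a J protein of the same class, was higher in BNST on each of its 3 probe sets, at 0.25, 0.23 and 0.21 (adjusted p = 0.326, 0.379 and 0.413, limma). Dnajb6, an inhibitor of aggregation, read 1615 to 1932 in BNST and 1693 to 1997 in MPOA on its brightest probe set, a difference of -0.03. Dnajc7, which bridges HSP70 and HSP90, was equally flat at 0.01. Dnajc5, the cysteine string protein of synaptic vesicles, gave -0.26 and -0.11 on its 2 brightest probe sets and 0.13, 0.04 and 0.02 on the others. Dnajc2, a J protein of the ribosome, was at 0.27 ± 0.10 (SE, adjusted p = 0.236, limma) on a probe set below the array median, with 0.05, 0.02 and -0.10 on its others.

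In the ER, Hspa5 (BiP), the HSP70 of that compartment, had 2 bright probe sets. On 1416064_a_at it averaged 340 ± 36.8 in BNST and 409 ± 43.2 in MPOA (-0.27 ± 0.10, SE, adjusted p = 0.258, limma), and on 1427464_s_at 844 ± 97.2 in BNST and 939 ± 84.0 in MPOA (-0.14). On the first, the short-day BNST arrays (326 and 345) lay below the short-day MPOA arrays (425, 452 and 444), and the long-day groups overlapped. Hsp90b1, the ER form of HSP90, was at -0.23 on the dimmer probe set and 0.07 on the brighter. Dnajc3, an inhibitor of the kinases that phosphorylate eIF2-alpha, was at -0.18 and -0.04 on its probe sets above the array median and at -0.07, -0.10 and -0.37 on those below it. The last, 1449373_at, read 7 to 11 in BNST and 10 to 13 in MPOA (adjusted p = 0.190, limma). Dnajc1, a membrane J protein, was at 0.25 and 0.24, and at 0.02 on a probe set below the array median.

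Hsp90aa1, the inducible cytosolic HSP90, gave 0.03, -0.15 and -0.04 between the nuclei. Among mitochondrial chaperones, Hspd1 (HSP60) averaged 46.0 ± 3.08 in BNST and 53.0 ± 4.82 in MPOA (-0.19 ± 0.10, SE, adjusted p = 0.450, limma). Its co-chaperonin Hspe1 (HSP10) was at -0.13 and -0.15. Hspa9, the mitochondrial HSP70, lay between -0.09 and 0.10 over 4 probe sets. The 12 probe sets of small heat shock proteins lay between -0.20 and 0.20. Among them Hspb1 (HSP25), an actin-associated small heat shock protein, was at 0.06 and 0.13, and Hspb8, which acts in selective autophagy, at 0.20, -0.04 and -0.02. Hspb11, which the name rule also takes in, is a protein of cilia.

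For short against long days in the BNST, 2 arrays were set against 3. No member passed, while 0.0442% of all probe sets did (10). At an unadjusted p under 0.05 there were 15 members (10.3%), against 12.7% of all probe sets. Both short-day arrays lay above or both below all long-day arrays for 32 members, where the background is 23.7%. In 10 members the short-day arrays were above (6.85%, background 10.2%) and in 22 below (15.1%, background 13.5%). With 2 short-day arrays, several members' values moved by over 1.5 times when 1 of them was left out, as given beside them. With 69 members higher and 77 lower, the median was -0.02, near the -0.01 of all probe sets. Members above the array median divided into 36 higher and 54 lower (median -0.04), near all such probe sets (median -0.06), but into 47 higher and 43 lower (median 0.01) after quantile normalization.

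The member with the smallest p was Dnajc28, a little studied J-domain protein, at 23 and 28 in short days and 19, 14 and 18 in long days. In MPOA it read 18, 19 and 20 in short days and 20, 19 and 18 in long days, so only BNST short-day arrays stood above 20. The BNST difference was 0.59 ± 0.15 (SE, adjusted p = 0.119, limma), and a second, dimmer probe set gave -0.05.

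Next came Hspe1, the lid of the mitochondrial chaperonin. On 1422579_at it read 58 and 50 in short-day BNST and 77, 71 and 75 in long-day BNST. The corresponding MPOA values were 70, 65 and 64 in short days and 76, 67 and 74 in long days. The short-day and long-day BNST arrays did not overlap (-0.46 ± 0.14, SE, adjusted p = 0.164, limma), those of MPOA did (-0.12), and the mean of both nuclei was -0.29 ± 0.09 (SE, adjusted p = 0.391, limma). The brighter Hspe1 probe set, which may match several transcripts, gave -0.19 in BNST and -0.10 in MPOA. Hspd1, the ring that Hspe1 closes, was at 0.08 in BNST and 0.05 in MPOA.

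Further mitochondrial members lay on both sides. Hspa9 read 37 and 37 in short-day BNST and 43, 47 and 48 in long-day BNST on 1418504_at (-0.31 ± 0.14, SE, adjusted p = 0.358, limma), but -0.04 and -0.01 on its other probe sets above the median. Dnaja3, its J partner, was at -0.29 on the brightest probe set and at -0.14 and 0.37 on those below the array median. The last moved to 0.15 without the short-day BNST array numbered 5 and 0.59 without that numbered 4. Dnajc11 was at 0.40 and -0.17 (adjusted p = 0.330 and 0.653, limma), both on probe sets below the array median. Dnajc4 read 22 and 33 in short days and 46, 34 and 36 in long days (-0.51 ± 0.18, SE, adjusted p = 0.234, limma), and this was -0.80 without the short-day array numbered 5 and -0.22 without that numbered 4. Among all probe sets above the array median, 6851 of 11305 were lower in this comparison (median -0.06). Over the 10 mitochondrial ones, 3 were higher and 7 lower, with a median of -0.11. After quantile normalization the median was -0.02, with 4 higher and 6 lower.

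**Figure D3:**
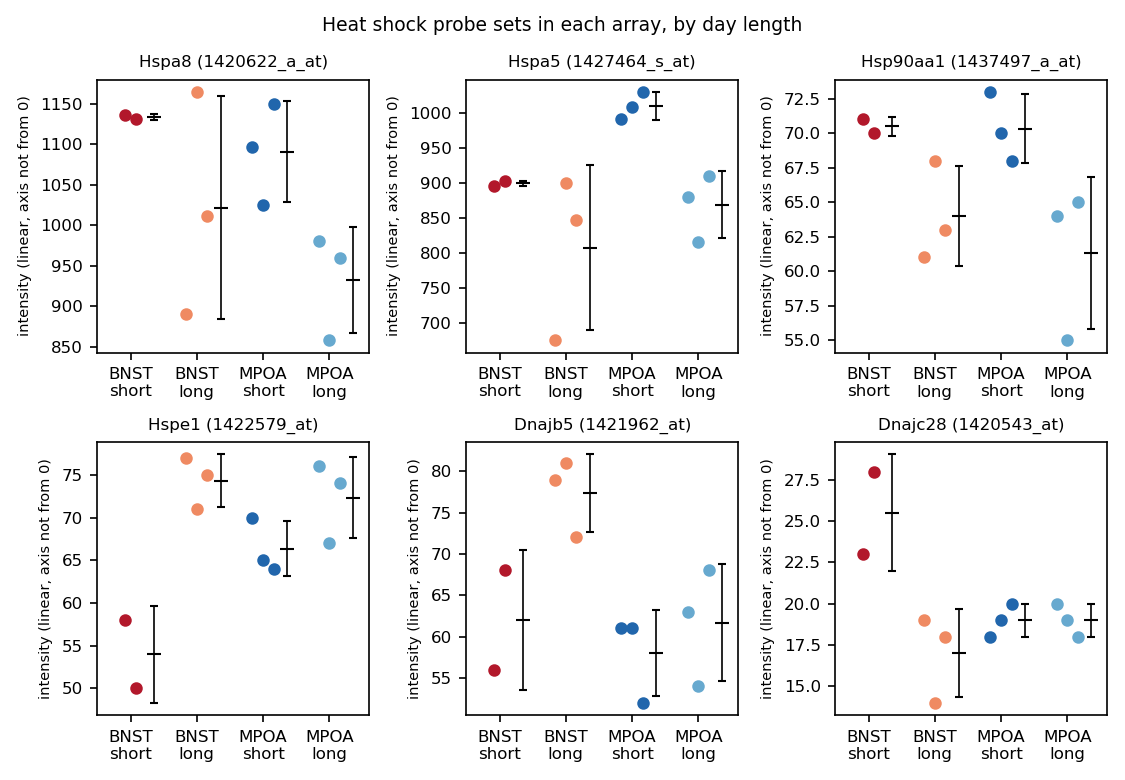
Intensity (linear, vertical axes not from 0) of Hspa8, Hspa5, Hsp90aa1, Hspe1, Dnajb5 and Dnajc28 on each array. Points are arrays in 4 groups, BNST short and long days and MPOA short and long days, and black bars are group means ± SD. The upper row has short-day MPOA points above all long-day MPOA points, and the lower row separates the 2 short-day from the 3 long-day BNST points.

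Of 14 probe sets above the array median for cytosolic J proteins of classes A and B, 10 were lower in short-day BNST (median -0.15) and 0 passed. Among all probe sets above the median 6851 of 11305 were lower (median -0.06), and after quantile normalization 8 of the 14 were lower (median -0.07). Dnajb5 read 56 and 68 in short days and 79, 81 and 72 in long days on 1421962_at, and 79 and 84 in short days and 116, 92 and 98 in long days on 1421961_a_at (both -0.32, adjusted p = 0.374 and 0.404, limma). The first was -0.18 without the short-day array numbered 4 and -0.46 without that numbered 5. The third and brightest Dnajb5 probe set gave -0.02 and did not separate the day lengths. Dnaja2, a broad HSP70 partner, read 109 and 113 in short days and 125, 145 and 143 in long days (-0.31, adjusted p = 0.447, limma). Over all alternatives Dnaja2 lay between -0.38 and -0.15. Dnaja1, its relative, was at -0.21 on its brighter probe set and 0.13 on the other, and Dnajb4, another HSP70 partner, at -0.28 and -0.21. Without the short-day array numbered 5, Dnaja1 was at -0.13 and Dnajb4 at -0.15. The brighter Dnaja1 probe set lay between -0.29 and -0.06 over all alternatives.

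Probe sets of the synaptic J protein Dnajc5 opposed each other. On 1448850_a_at the short-day BNST arrays read 39 and 45 and the long-day arrays 29, 29 and 36 (0.43 ± 0.15, SE, adjusted p = 0.230, limma). On 1436180_at they read 36 and 33 in short days and 48, 39 and 42 in long days (-0.31 ± 0.15, SE, adjusted p = 0.380, limma). Its other probe sets gave 0.15, -0.06 and -0.27, the last being -0.16 without the short-day array numbered 4. Neither direction can be given to the gene, and the transcript forms behind each probe set were not used here. Dnajc9, a histone chaperone with a J domain, was at -0.28, and Hspa4l, an HSP110-type exchange factor, at -0.34 on a probe set below the array median and 0.07 on one above it.

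Of the TRiC probe sets above the array median, 11 of 16 were lower in short-day BNST (median -0.16), against the 6851 of 11305 given above, and 9 of 16 after quantile normalization (median -0.04). Over all 24 TRiC probe sets 12 were higher and 12 lower. Cct3 1448178_a_at was at -0.30 ± 0.16 (SE, adjusted p = 0.447, limma), and at -0.20 without the short-day array numbered 5. Cct5 was at -0.27 ± 0.14 (SE, adjusted p = 0.448, limma), and between -0.32 and -0.12 over all alternatives. The day lengths did not overlap for either probe set. Cct8 was at -0.08 on 1415785_a_at, but at 0.45 on 1436973_at, a probe set below the array median that read 14 and 18 in short days and 11, 11 and 13 in long days. That value was 0.27 without the short-day array numbered 5. The Cct6a probe sets, also below the array median, opposed each other at -0.43 and 0.23, the first being -0.62 without the short-day array numbered 4 and -0.24 without the long-day array numbered 2. Hspa1a was at 0.37 (12 and 13 in short days, 10, 10 and 9 in long days, adjusted p = 0.366, limma). Hspb1 was at -0.34 and 0.03, and the first was -0.21 without the long-day array numbered 3. Markers of ependyma and choroid plexus, tissues of the brain ventricles, differed between the same arrays. Of 8 such genes 7 were lower in short days (median -0.50, 2 passed), with sums of 394 to 417 in short-day and 833 to 1190 in long-day BNST arrays. Their part in the chaperone values was not tested.

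In MPOA, short-day arrays were set against long-day arrays with 3 in each group. No member passed, nor did any other probe set (0%), and the adjusted p of every member was 1. At an unadjusted p under 0.05 there were 6 members (4.11%), against 3.5% of all probe sets. The groups did not overlap for 14 members, where the background is 5.19%. Short-day arrays were above all long-day arrays for 11 of these (7.53%, background 2.64%) and below them for 3 (2.05%, background 2.55%). The 11 come from 10 genes, and they hold the brightest probe sets of Hspa8, Hspa5 and Hsp90aa1.

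These are the main HSP70 of the cytosol, that of the ER, and the inducible cytosolic HSP90. Hsp90aa1 is the only cytosolic HSP90 gene among the members. Hspa8 read 1097, 1025 and 1150 in short days and 981, 858 and 959 in long days (1420622_a_at, 0.23 ± 0.13, SE, unadjusted p = 0.0954, limma). Its other probe sets gave 0.16, -0.18 and -0.35, the last on 1455789_x_at with 29, 23 and 26 in short days and 33, 39 and 28 in long days, so no direction can be given to the gene. Hspa5 read 991, 1008 and 1030 in short days and 879, 816 and 910 in long days (1427464_s_at, 0.22 ± 0.13, SE, unadjusted p = 0.106, limma). Its other probe set did the same, with 425, 452 and 444 in short days and 373, 341 and 417 in long days (0.23). Hsp90aa1 read 73, 70 and 68 in short days and 64, 55 and 65 in long days (1437497_a_at, 0.20 ± 0.12, SE, unadjusted p = 0.115, limma), with 0.24 and 0.01 on its other probe sets and 0.12 on this one without the long-day MPOA array numbered 2.

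The same 3 probe sets in BNST gave 0.16 for Hspa8, 0.17 for Hspa5 and 0.14 for Hsp90aa1. The short-day BNST arrays read 1136 and 1131 for Hspa8, against 890, 1165 and 1012 in long days, so the groups overlapped. For Hspa5 they read 896 and 902, against 675, 900 and 847. For Hsp90aa1 they read 71 and 70, against 61, 68 and 63, without overlap. The mean over both nuclei was 0.19 ± 0.10 for Hspa5 (SE, adjusted p = 0.571, limma) and 0.19 ± 0.10 for Hspa8 (SE, adjusted p = 0.572, limma).

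Smaller members had the smallest p in MPOA. Hspa12b, an atypical HSP70 of endothelium, read 24, 22 and 29 in short days and 20, 19 and 19 in long days (0.36 ± 0.14, SE, unadjusted p = 0.0166, limma). Markers of endothelium and vessels summed to 267 to 277 in short-day and 272 to 299 in long-day MPOA arrays, with 4 of 10 genes higher. In the opposite direction, Hspb8 read 42, 43 and 34 in short days and 49, 47 and 46 in long days on 1456434_x_at (-0.26, or -0.15 without the short-day array numbered 6), with 0.00 and 0.07 on its other probe sets. Dnajb5 read 114, 134 and 116 in short days and 161, 141 and 138 in long days on its brightest probe set (-0.27), where its other probe sets gave 0.05 and -0.09. Dnajb2, a J protein known from neurons, was at 0.30, Dnaja4 at -0.38 and Dnajb12, anchored in the ER membrane, at 0.31, each on a probe set below the array median. Dnaja4 was at -0.14 without the short-day array numbered 6, and at 0.14 and 0.07 on its other probe sets, and Dnajb12 was at 0.07 on its other one. Also below the array median, Hspa9 1418503_at was at 0.29, Dnajc2 1425910_at at 0.26, Hspa4l 1418253_a_at at 0.26, Cct6a 1455988_a_at at 0.29 and Hspa4 1435194_at at -0.34. The other probe sets of Hspa9 lay between -0.15 and -0.02, those of Dnajc2 between -0.05 and 0.16, and those of Hspa4 at -0.10 and 0.07. The other Cct6a probe set was at 0.13 and the other Hspa4l probe set at 0.12. With 1 array left out, Hspa4 1435194_at was at -0.19 (without the long-day array numbered 3), Hspa4l 1418253_a_at at 0.16 (without the short-day array numbered 6) and Cct6a 1455988_a_at at 0.19 (without the short-day array numbered 5). Markers of striatal neurons were lower in short-day MPOA for 11 of 11 genes (median -0.31, 0 passed), summing to 1748 to 2314 in short days and 2213 to 3077 in long days. Their part in these values was not tested.

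**Figure D4:**
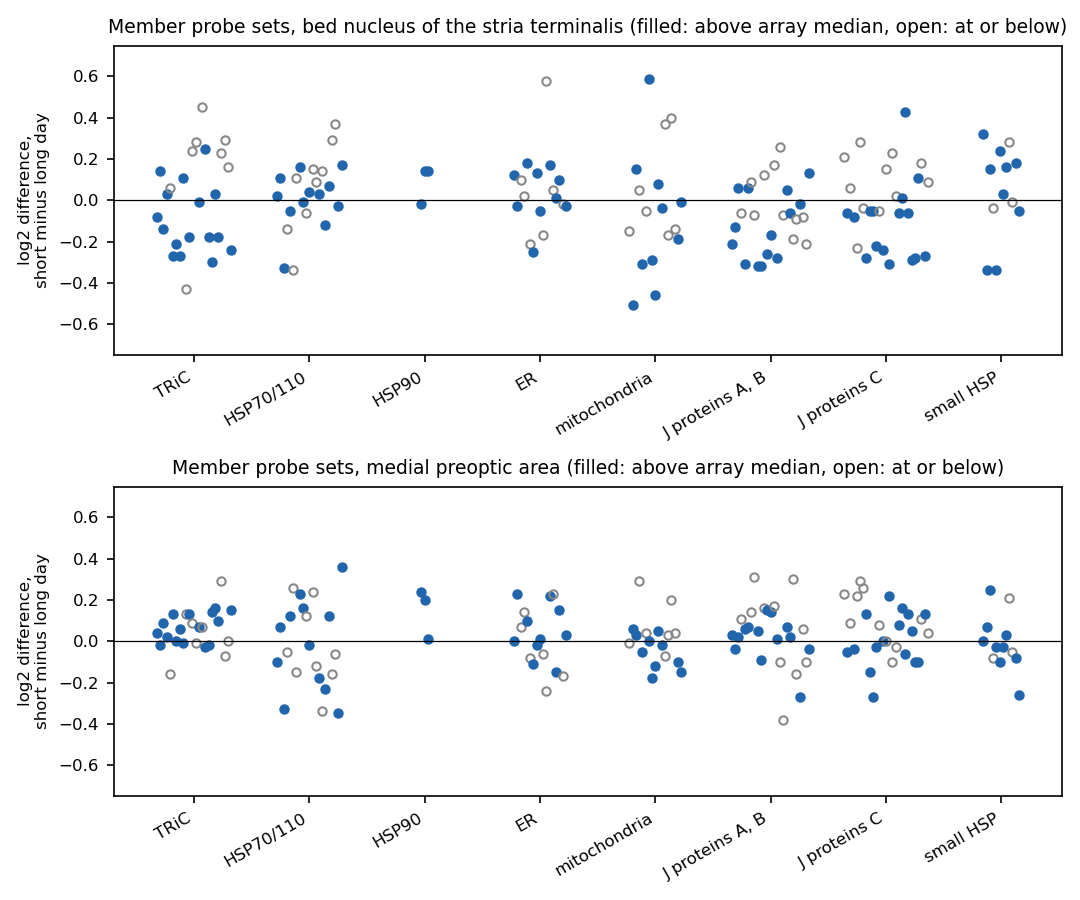
Log2 difference, short minus long day, of each member probe set in BNST (upper panel) and MPOA (lower panel), grouped on the horizontal axis by role. Filled points have a mean above the array median, and open points do not. BNST points spread from -0.51 to 0.59 and MPOA points from -0.38 to 0.36, around medians of -0.02 and 0.03.

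Averaged over both nuclei, the day-length effect passed for 0 members, while 0.0133% of all probe sets did (3). At an unadjusted p under 0.05 there were 9 members (6.16%), against 9.02% of all probe sets. Apart from Hspe1, these included Dnajc28 at 0.30 and Hspbp1 at -0.33, with adjusted p = 0.436 and 0.484 (limma). Without the short-day MPOA array numbered 6 Hspbp1 was at -0.22. Of the other members with a small p, Dnajc11 1433881_at was at 0.30, Hspa12b at 0.26, Cct8 1436973_at at 0.26, Cct6a 1455988_a_at at 0.26, Dnajc18 1425077_at at 0.28, Dnaja3 1420629_a_at at -0.23 and Dnajb5 1421962_at at -0.20, with adjusted p between 0.474 and 0.561 (limma). Hspbp1 was at -0.33 in BNST (-0.20 without the short-day array numbered 5) and at -0.33 in MPOA, with overlapping groups in MPOA.

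The difference of the day-length effects between the nuclei, BNST minus MPOA, passed for 0 members and for 0% of all probe sets. At an unadjusted p under 0.05 there were 11 members (7.53%), against 8.34% of all probe sets. Hspa4l 1418253_a_at had the smallest p (-0.61 ± 0.20, SE, adjusted p = 0.480, limma). It read 16 and 16 in short-day BNST and 19, 22 and 20 in long-day BNST, against 19, 18 and 23 in short-day MPOA and 16, 15 and 19 in long-day MPOA. Its values thus lay in opposite order in the 2 nuclei, on a probe set below the array median. The ER J protein Dnajc10 was at 0.82 on a dim probe set (adjusted p = 0.501, limma), where its probe set above the median gave -0.03 in BNST and 0.03 in MPOA. The value of 0.82 became 0.48 without the short-day BNST array numbered 5 and 1.16 without that numbered 4. Dnajc10 was at 0.58 in BNST (0.24 without the short-day array numbered 5, 0.92 without that numbered 4). Dnajc28 was at 0.59 and Dnajc5 at -0.53 on 1436180_at and 0.49 on 1448850_a_at, both genes described above. Dnajb2 was at -0.49, Dnajc9 at -0.41 and Dnajc18 1425076_at at -0.45. Cct6a 1423517_at was at -0.56 (-0.37 without the long-day BNST array numbered 2), Dnajc4 at -0.56 (-0.27 without the short-day BNST array numbered 4) and Dnaja3 1432066_at at 0.44 (0.22 without the short-day BNST array numbered 5). Cct3 was at -0.44 (adjusted p = 0.599, limma) and Hspa4 1435194_at at 0.48 (adjusted p = 0.629, limma).

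Other genes of protein folding were counted from a list of 73, of which 63 were measured. None passed in any comparison. Short minus long day gave 25 higher and 38 lower in BNST and 39 higher and 24 lower in MPOA, and BNST minus MPOA gave 25 higher and 38 lower. Of all probe sets tested, 52.79%, 49.33% and 49.85% were lower in these comparisons, and of those above the array median 60.6%, 52.35% and 48.28%. After quantile normalization, 5750 of the 11305 above that median were lower in short-day BNST. Hsf2 (0.31), Stip1 (0.36), Lonp1 (0.31) and Ahsa1 (0.19) had the smallest p in MPOA. Hsf2 read 7 to 12 and Lonp1 12 to 23 over all arrays. For the mean of both nuclei (29 higher, 34 lower, background 52.32% lower) these were Serpinh1 (-0.32), Pdia4 (-0.26), Pfdn2 (-0.23) and Pfdn6 (-0.22). Above the array median that background was 60.59%. For the difference of effects (22 higher, 41 lower, background 52.66% lower) the genes of smallest p were Pdia4 (-0.80), Pfdn2 (-0.69), Manf (-0.63) and Serpinh1 (-0.71). Above the array median that background was 57.81%. Prefoldin, which hands actin and tubulin to TRiC, had 6 of 6 genes lower in BNST than in MPOA (median -0.11), and 5 of 6 after quantile normalization. In short days alone 5 of 6 were lower (median -0.20), but in long days alone 2 of 6 were (median 0.01). Pfdn2, one of its subunits, read 121 and 94 in short-day BNST and 153, 179 and 148 in long-day BNST (-0.58 ± 0.15, SE, adjusted p = 0.119, limma), against 173, 155 and 143 in short-day MPOA and 139, 144 and 152 in long-day MPOA. The 2 short-day BNST arrays were the lowest of the 11.

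ER folding genes lay both ways in short-day BNST, 9 higher and 9 lower of 18. Pdia4, a protein disulphide isomerase, read 21 and 27 in short days and 39, 39 and 35 in long days (-0.66 ± 0.16, SE, adjusted p = 0.106, limma). Manf, a secreted factor induced by ER stress, read 108 and 126 in short days and 175, 162 and 162 in long days (-0.51, adjusted p = 0.137, limma). Serpinh1, the collagen chaperone, was at -0.68 (adjusted p = 0.106, limma) on a probe set that read 9 to 19. Hspa5 did not share this, at 0.17 and -0.03 in the same comparison.

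Between the nuclei, Cryab, the alpha-B crystallin of the small heat shock protein family, is abundant in oligodendrocytes and was not reached by the name rule. It read 995 and 623 in short-day BNST and 437, 521 and 440 in long-day BNST, against 505, 511 and 230 in short-day MPOA and 312, 466 and 359 in long-day MPOA. The groups overlapped and the difference was 0.66 ± 0.18 (SE, adjusted p = 0.0877, limma). Oligodendrocyte markers were higher in BNST for 7 of 9 genes (median 0.27, 0 passed), summing to 276 to 501 in BNST and 226 to 316 in MPOA, and their part in the Cryab value was not tested. Hyou1, the HSP110 of the ER and a nucleotide exchange factor of Hspa5, read 414 and 408 in short-day BNST and 490, 454 and 511 in long-day BNST, against 600, 593 and 525 in short-day MPOA and 488, 562 and 619 in long-day MPOA (-0.33 ± 0.10, SE, adjusted p = 0.110, limma). Bag3 and Bag6, members of the BAG family of HSP70 co-chaperones, were at -0.33 (adjusted p = 0.0995, limma) and -0.45 (adjusted p = 0.149, limma). The Bag3 probe set read 12 to 18 over all arrays, below the array median.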

How the data were processed

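Biotin-labelled total RNA of 11 micropunch samples was measured on 11 arrays. The deposited values are linear probe set intensities that the authors made with RMA version 3.4, per the submitters' processing notes. They are whole numbers, and no further step is recorded in the sources used. Of 22690 probe sets, 64 controls were left out. In the platform annotation, which can be old, 20380 of 22626 probe sets carry 1 symbol (12393 genes), 691 several and 1555 none; 2 probe sets that match the name rule carry several symbols and were not used. The probes match the house mouse, so levels of different genes were not compared. Brightest and dimmest only tell the probe sets of 1 gene apart.

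The log2 of the intensities, with no pseudocount, was fitted with 4 group means on all 11 arrays in limma 3.58.1 (R 4.3.3; lmFit, eBayes; 7 residual and 12.9 prior degrees of freedom). Named members were those that passed, those with the smallest p until 12 genes were named in each comparison, and well-known members; 4 further folding genes were named in each comparison. Some further probe sets of named genes are given beside them. The members, roles and lists were chosen with earlier results of these data known. The procedure was tested on simulated data. The number of arrays limits the precision. Alternatives were another normalization or centring, a filter on dim probe sets, other priors and weights, noise against the rounding, another threshold, a replicate block, 1 nucleus alone and each array left out. No sequences of the members were used.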

Additional observations from a re-analysis of the deposited data

How the results depend on the processing

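For 96 member differences, 1827 of 1843 values under 20 alternative settings kept their direction. These differences were those with the smallest p in each comparison and those of 2 sets of probe sets above the array median. The sets were TRiC probe sets between the nuclei, and probe sets whose day-length groups did not overlap within a nucleus. Well-known members outside these were not put through the alternatives. Several settings can change a p-value but not a difference, namely another threshold, other priors and the filter on dim probe sets. Centring changed almost nothing, as all arrays had the same median. Leaving out an array of a group outside a comparison cannot move its difference either. Most of the differences were also picked from these data. The count of kept directions was thus partly fixed in advance and does not measure robustness. The 16 reversals concerned 3 probe sets near 0 between the nuclei. Cct7 1415817_s_at was at -0.01 with quantile normalization, -0.02 with array weights, -0.00 with noise against the rounding and -0.08 to 0.07 with 1 array left out. Cct2 1416037_a_at was at 0.01 with quantile normalization and -0.11 to 0.08 with 1 array left out. Cct4 1438560_x_at was at -0.06 with array weights and -0.14 to 0.17 with 1 array left out. Between the nuclei, 1 member passed when dim probe sets were left out, with a trended and robust prior, and with array weights (each Cct3 1448178_a_at, adjusted p = 0.0457, 0.0241 and 0.0432, limma), and 2 at a threshold of 0.10; with 1 array left out the count was 0 to 1. In the other comparisons 0 members passed under any alternative.

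Over all probe sets, the number called in MPOA was 1 with array weights and 0 to 1 with 1 array left out. In BNST, it was 30 at a threshold of 0.10, 0 with the BNST arrays alone, and 0 to 38 with 1 array left out (0 without the short-day BNST array numbered 5, 1 without that numbered 4, 16 without the long-day BNST array numbered 1 and 38 without the short-day MPOA array numbered 6). Of the 10 called there, 4 were higher and 6 lower, and quantile normalization gave 5 higher and 2 lower. For the mean effect it was 1 with dim probe sets left out and 1 to 5 with 1 array left out, and for the difference of effects 0 to 5. Between the nuclei it was 402 at a threshold of 0.10 (171 higher, 231 lower) and 70 to 224 with 1 array left out, lowest without the short-day BNST array numbered 5.

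Sample numbers 1 to 5 occur in both nuclei, but the labels do not say whether same-numbered samples share an animal. They were treated as unpaired. Deviations of same-numbered samples from their group means correlated at -0.03 to 0.07. With so few arrays in a group, these values cannot show whether the samples are paired. With the sample number as a replicate block (estimated correlation 0.008), 0, 10, 3, 0 and 244 probe sets were called in MPOA, BNST, their mean, their difference and between the nuclei, and 0 members in each. The causes of the shifts were not tested. Rounding limits dim members, since 1 unit is 0.074 on the log2 scale at 19.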
